A study of Mus musculus with 36 samples.

Results

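The platelet-derived growth factor (PDGF) family was followed through its 2 receptors, Pdgfra and Pdgfrb, and its 4 ligands, Pdgfa, Pdgfb, Pdgfc and Pdgfd, which were taken by symbol from the 19909 genes of the deposited expression table. All 6 were found. PDGF ligands are secreted as dimers that draw a pair of receptor chains together, and the receptors are tyrosine kinases that signal through the phosphoinositide 3-kinase, Ras and phospholipase C pathways. The products of Pdgfa and Pdgfc act mainly on the alpha receptor, that of Pdgfd mainly on the beta receptor, and that of Pdgfb on both. The proteins made from Pdgfc and Pdgfd are released in a latent form that proteases activate. In the brain the alpha receptor is known as the receptor of oligodendrocyte precursors and the beta receptor as that of mural cells, the contractile cells around vessels, which Pdgfb from endothelium recruits. Both receptors have also been described in cells of the subependymal zone (SEZ), the neurogenic niche along the lateral ventricles.

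The study sequenced 36 RNA libraries, all from C57BL/6 mice of 8 weeks, of which 28 came from 8 populations sorted directly from SEZ homogenates: qNSC, pNSC, aNSC and NPC1 with 4 libraries each, and NPC2, NB1, NB2 and Other with 3 each. The other 8 came from neurosphere cells, SEZ cells kept floating in culture with EGF and FGF to passage 4, loaded with 2 ug/ml of the dye DFFDA and grown for 4 days before they were sorted into DFFDA_H and DFFDA_L, with 4 libraries each. No group carries a transgene or a mutation in the labels, which give the fresh populations by these names alone. Neither the sorting gates nor any pooling of mice is stated in the sources used here, and a gate may hold more than 1 cell type.

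Values are deposited log2 expression levels, and each library has its own lowest value, here called its floor, between -5.06 and -2.18, which 362 to 3932 genes share. The sums of 15 astroglial genes were highest in qNSC and pNSC (log2 14.95 to 15.18 over these 8 libraries), the sums of 10 activated stem cell genes were 13.34 to 13.54 in aNSC and at most 9.29 in qNSC, and the sums of 15 neuroblast genes were 13.67 to 13.70 in NB2 and 7.93 to 8.72 in qNSC. In DFFDA_H and DFFDA_L the astroglial sums were 11.28 to 12.19 and the neuroblast sums 7.95 to 8.39. The lowest correlation across genes between libraries of 1 group was 0.880, in qNSC. In such sorted bulk samples, fewer cells that carry a transcript and less of it in each cell cannot be told apart.

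Pdgfa was above a log2 value of 0 in 35 of 36 libraries, Pdgfra in 27, Pdgfc in 26, Pdgfrb in 21, Pdgfd in 12 and Pdgfb in 6. Pdgfd was at the floor in 12 libraries, Pdgfb in 6, Pdgfra in 2, Pdgfrb and Pdgfc in 1 each, and Pdgfa in none of the 36. The size of a difference that involves a library at its floor depends on where that floor lies.

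**Figure D1:**
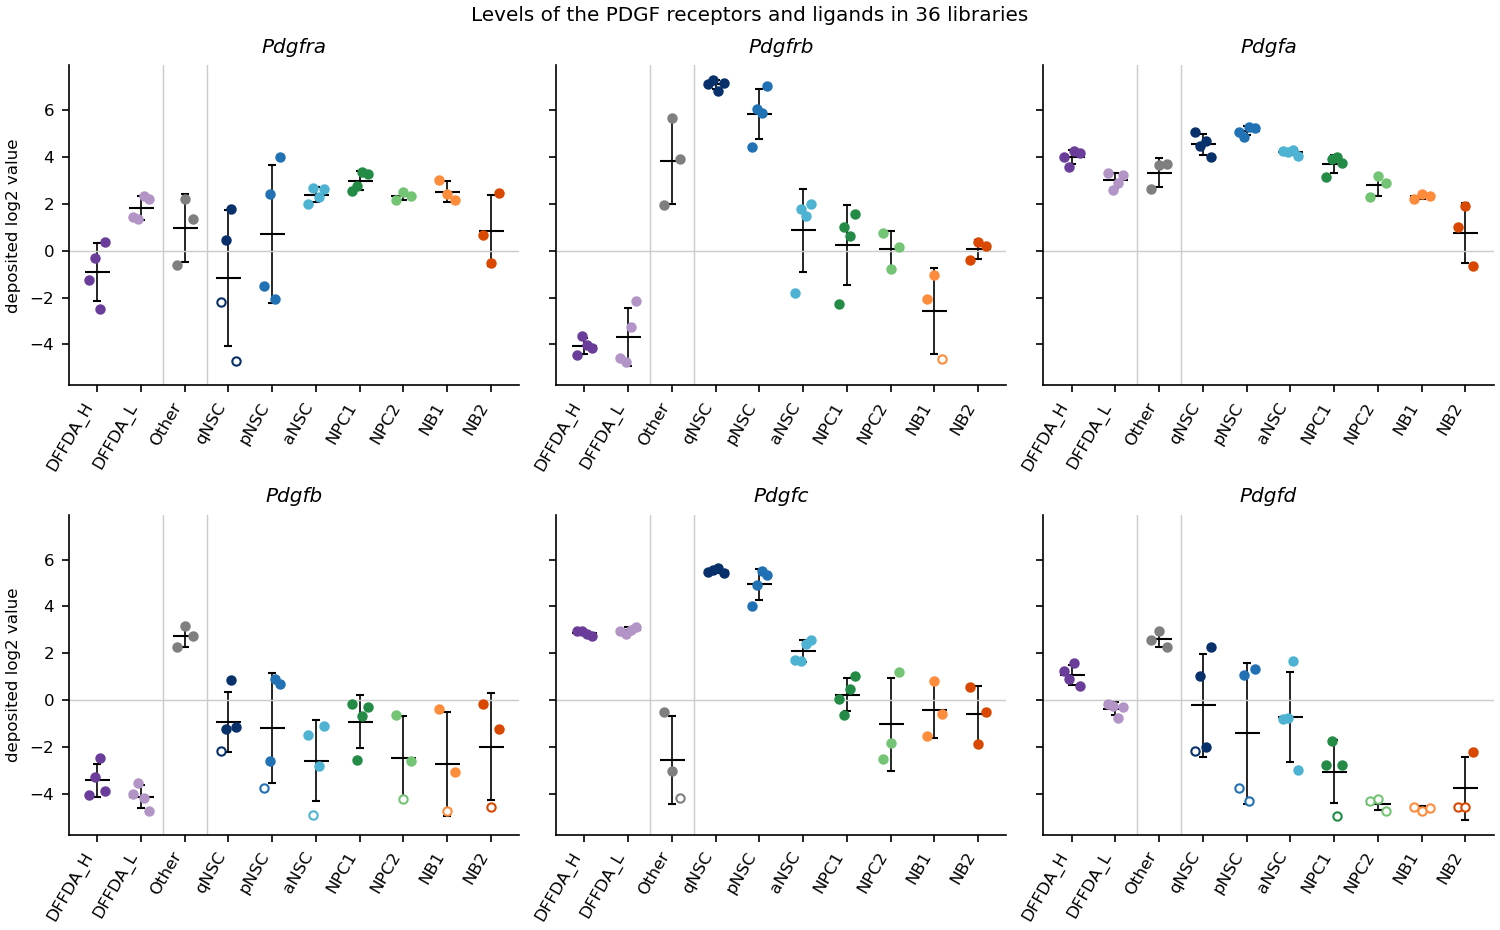
Deposited log2 value (vertical axis) of each member in the 36 libraries, by group. Points are libraries, open points are libraries in which the gene is at that library's floor, and black marks give the mean and SD. Pdgfrb and Pdgfc are highest in qNSC and pNSC, Pdgfa declines towards NB2, and Pdgfb and Pdgfd are at least 2.29 in all 3 Other libraries.

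Positions are those of GRCm38 (GENCODE M21). Pdgfra (ENSMUSG00000029231) spans positions 75152292 to 75198215 of chromosome 5 and Pdgfa (ENSMUSG00000025856) positions 138976014 to 138997370 of the same chromosome. Pdgfra lies 376.7 kb from Kit, the gene of the stem cell factor receptor. Pdgfb (ENSMUSG00000000489) is on chromosome 15 at 79995874 to 80014977, Pdgfc (ENSMUSG00000028019) on chromosome 3 at 81036416 to 81214040 and Pdgfd (ENSMUSG00000032006) on chromosome 9 at 6168584 to 6378850. Exons of Pdgfa share 813 bases with the antisense gene 6330403L08Rik, those of Pdgfc 147 bases with Gm16000, and those of Pdgfra 456 bases with Gm42802, and since the library kit does not mark strand, reads from these stretches cannot be assigned to 1 strand.

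The 250 bases before the RefSeq start (GRCm38.p6) are printed for 3 members that are highest in different groups: Pdgfc in qNSC, Pdgfra in NPC1 and Pdgfd in Other. The windows are chr3:81036166-81036415, chr5:75152001-75152250 and chr9:6168236-6168485, all on the plus strand, and hold no annotated exon base. Capitals mark CG dinucleotides.
Pdgfc: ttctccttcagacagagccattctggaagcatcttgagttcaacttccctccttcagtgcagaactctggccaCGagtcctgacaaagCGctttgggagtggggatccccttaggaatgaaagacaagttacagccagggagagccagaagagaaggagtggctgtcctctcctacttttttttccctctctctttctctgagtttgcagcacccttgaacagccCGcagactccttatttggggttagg
Pdgfra: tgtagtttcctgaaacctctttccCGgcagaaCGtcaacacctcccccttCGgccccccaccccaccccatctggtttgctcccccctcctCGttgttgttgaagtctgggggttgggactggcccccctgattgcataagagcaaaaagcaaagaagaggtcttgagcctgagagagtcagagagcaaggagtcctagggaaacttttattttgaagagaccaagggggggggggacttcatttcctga
Pdgfd: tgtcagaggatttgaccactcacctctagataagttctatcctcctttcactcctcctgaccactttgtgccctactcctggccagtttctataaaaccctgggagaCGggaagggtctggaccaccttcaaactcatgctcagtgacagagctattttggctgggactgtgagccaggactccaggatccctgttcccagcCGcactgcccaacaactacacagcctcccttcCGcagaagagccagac
They hold 3, 4 and 3 CG dinucleotides, against a median of 6 over the 32851 RefSeq promoter windows of the same length. Of 4 motifs searched on both strands, the TATA box (TATAAA, in 12.4% of all windows), the GC box (GGGCGG, in 32.7%), the NFI motif (TTGGCA, in 12.3%) and an E box (CAGCTG, in 13% of windows), only TATAAA in the Pdgfd window was found, 160 bases before the start. A match is a description of these letters. Not printed are the windows of Pdgfa, highest in pNSC, which overlap its annotated exons. Those windows hold 19 and 28 CG dinucleotides, and both hold a GC box.

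How many members changed is given first, from limma with p-values adjusted by the Benjamini-Hochberg method over all genes tested and called under 0.05. In aNSC against pNSC, 3 of 6 members were called, all lower in aNSC, where 48.3% of all genes tested were called (28.4% higher and 19.9% lower). In aNSC against qNSC 3 of 6 were called, 1 higher and 2 lower, with 62.3% of all genes called (35.3% higher and 27.1% lower). In NB2 against NB1 1 of 6 was lower, with 24.6% of all genes called (10.4% higher and 14.2% lower), and in NB2 against qNSC 4 of 6 were lower, with 68.3% (39.4% higher and 28.8% lower). In Other against the mean of the 7 named populations 4 of 6 were called, 3 higher and 1 lower, with 54.3% (25.9% higher and 28.4% lower). With 6 genes, these counts are not read as a result about the family, and what follows is about single genes.

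In 4 steps of the sequence limma called 0 of 6 members. For pNSC against qNSC, with 22.3% of all genes called (14.2% higher and 8.06% lower), 0 members had an unadjusted p under 0.05. There the log2 change was -1.25 for Pdgfrb (95% interval -3.05 to 0.55), -0.57 for Pdgfc (-2.08 to 0.93), 0.56 for Pdgfa (-0.18 to 1.3) and 1.89 for Pdgfra (-0.41 to 4.19). For NPC1 against aNSC (12.7% of genes called, 6.24% higher and 6.48% lower) this count was 1, Pdgfc. For NPC2 against NPC1 (1.34%, with 0.202% higher and 1.14% lower) it was 1, Pdgfa, and for NB1 against NPC2 (7.67%, with 3.78% higher and 3.88% lower) it was 1, Pdgfrb, which was called there with library weights (limma adjusted p = 0.0335). A step without a call is not a sign of equal levels, since the intervals of the low members span several log2 units. Among the neurosphere cells 3 of the 4 members that passed the filter on low values were called in DFFDA_H against DFFDA_L, 2 higher and 1 lower, with 43.8% of all genes called (21.6% higher and 22.3% lower).

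**Figure D2:**
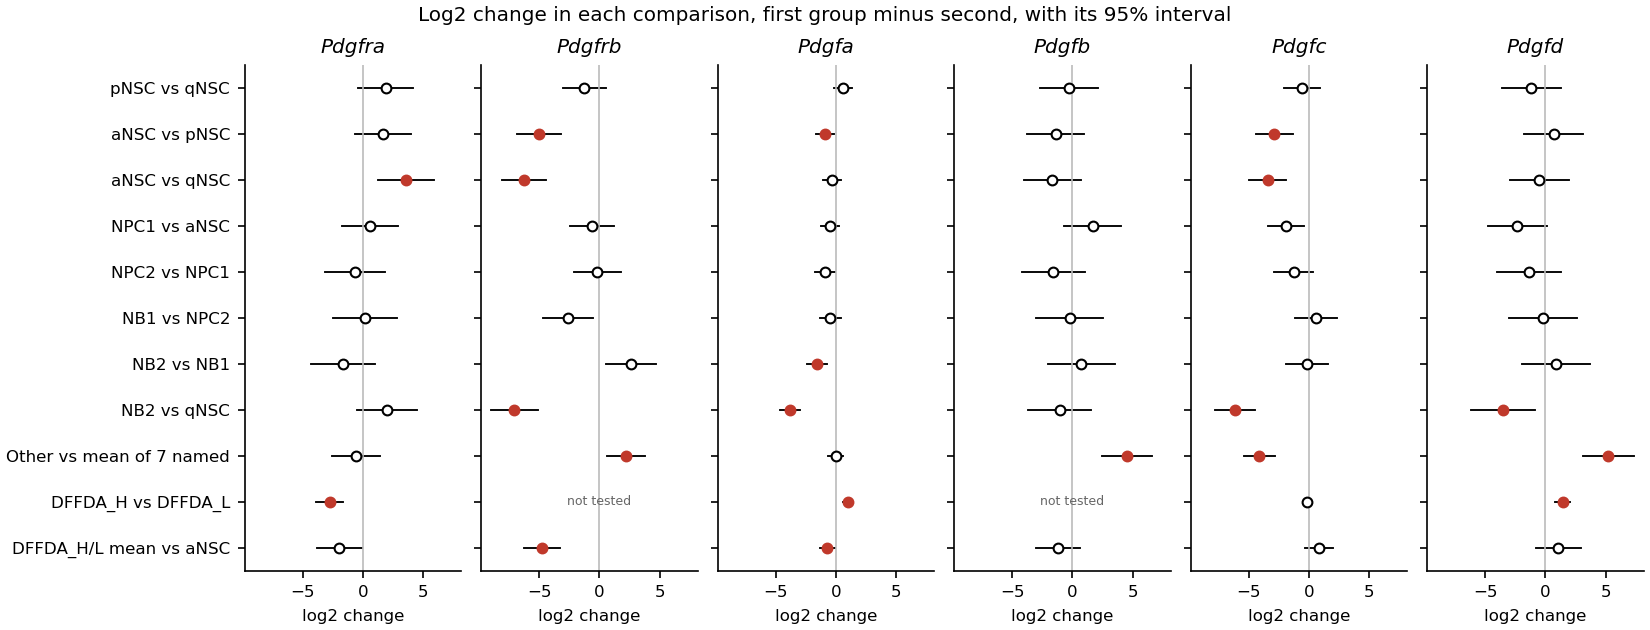
Log2 change of each member in 11 comparisons (horizontal axis, first group minus second), with its 95% interval from limma. Filled points passed an adjusted p under 0.05 over all genes, and open points did not. Pdgfrb and Pdgfc lie far below 0 in aNSC against qNSC and NB2 against qNSC, and Pdgfb and Pdgfd lie above 0 in Other.

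Pdgfrb (ENSMUSG00000024620), the beta receptor, lies on chromosome 18 at 61045150 to 61085061, 15.5 kb from Csf1r, the gene of a related receptor of microglia. It was the more strongly changed receptor. Its log2 values were 7.15, 7.30, 6.84 and 7.18 in the 4 qNSC libraries and 4.46, 6.05, 5.89 and 7.06 in the pNSC libraries. They were -1.80, 1.79, 1.47 and 2.01 in aNSC. The aNSC values lay below all 8 of these, and the pNSC values overlapped those of qNSC through replicate 4.

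The mean log2 value of Pdgfrb was 0.87 ± 1.79 in aNSC against 7.11 ± 0.20 in qNSC (SD, n = 4 each), a 75.8-fold lower level in aNSC (log2 change -6.24, SE 0.87, limma adjusted p = 7.64e-07). Against pNSC, at 5.86 ± 1.07, it was 31.9-fold lower in aNSC (log2 change -4.99, limma adjusted p = 3.98e-05). Replicate 1 is the lowest aNSC library, and without it these log2 changes were -5.36 against qNSC and -4.11 against pNSC, both still called. From aNSC on it stayed low, with 1.02, 0.65 and 1.56 in 3 NPC1 libraries and -2.26 in NPC1 replicate 1, and with -0.76 to 0.77 in NPC2. NB1 held the lowest fresh mean, with -2.04, -1.03 and -4.61, of which the last is that library's floor. NB2 values of -0.40, 0.37 and 0.21 lay above all 3 NB1 values, a difference that missed the threshold (log2 change 2.62, 95% interval 0.55 to 4.70, limma adjusted p = 0.0585). With values below 0 set to 0 the log2 change was 0.19 (limma adjusted p = 0.913), and without NB1 replicate 3 it was 1.60 (limma adjusted p = 0.320). The call was gained with library weights (limma adjusted p = 0.0257), with the replicate block (0.0267), with all 36 libraries in 1 fit (0.0434) and without NB1 replicate 2 (0.0313). NB2 was 133-fold below qNSC for Pdgfrb (limma adjusted p = 3.33e-07).

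Markers of mural cells were set beside these values, since mural cells carry Pdgfrb. Pdgfrb was 1.95 to 5.67 in Other and 6.84 to 7.30 in qNSC, without overlap. The list of 16 mural genes leaves Pdgfrb out, and only 9 of them were found in the deposited table. The summed level of these 9 mural genes was 7.26 to 10.94 in Other and 4.24 to 4.68 in qNSC. Rgs5, a pericyte signalling regulator, averaged 5.77 ± 1.36 in Other and 0.48 ± 1.82 in qNSC, and Vtn, a matrix gene of pericytes, 8.93 ± 2.15 in Other and 0.45 ± 2.16 in qNSC (log2, SD, n = 3 and 4). The mural sum was 2.3 to 2.92 in aNSC, below all 4 qNSC libraries. Of the 9 mural genes 4 were called lower in aNSC (Rgs5, Vtn, Higd1b and Notch3) and 1 higher (Myh11). Over all genes tested, 27.1% were called lower in aNSC than in qNSC and 35.3% higher. The part of such cells in the Pdgfrb difference was not tested.

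Pdgfra, the alpha receptor, was higher in aNSC than in qNSC, the opposite direction to Pdgfrb. Its log2 values were -2.18, 0.48, 1.78 and -4.73 in qNSC, of which the first and the last are floors. They were -1.5, 2.43, -2.04 and 4.02 in pNSC. Pdgfra was uneven over these 8 libraries, and pNSC replicate 4 held the highest value of all 36 libraries. The aNSC libraries were close together at 1.99, 2.68, 2.3 and 2.64, all above the 4 qNSC libraries.

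The mean log2 value of Pdgfra was 2.40 ± 0.32 in aNSC against -1.16 ± 2.89 in qNSC (SD, n = 4 each), an 11.8-fold higher level in aNSC (log2 change 3.56, SE 1.12, limma adjusted p = 0.00747). The size depends on the qNSC floors: with values below 0 set to 0 the log2 change was 1.84, with library weights 4.16, without qNSC replicate 3 it was 4.54, and without qNSC replicate 4 it was 2.38 and no longer called (limma adjusted p = 0.055). Against pNSC, Pdgfra was not called in aNSC (limma adjusted p = 0.222), and was called higher without pNSC replicate 4 (log2 change 2.77, limma adjusted p = 0.0424). Pdgfra was 2.54 to 3.39 in NPC1, 2.17 to 2.5 in NPC2 and 2.15 to 3.01 in NB1, and no step among these passed the test. In NB2 it was 0.66, -0.53 and 2.46, 1 library within the NB1 range and 2 below it, without a call against NB1 (limma adjusted p = 0.378) but with one when libraries were weighted (log2 change -2.06, limma adjusted p = 0.0464). NB2 was not called against qNSC for Pdgfra (limma adjusted p = 0.14), and was called higher without qNSC replicate 3 (log2 change 3.00, limma adjusted p = 0.0298).

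Other genes that mark oligodendrocyte precursors were set beside Pdgfra. The summed level of 18 such genes, a list that leaves Pdgfra out, was 10.14 to 10.84 in aNSC and 11.30 to 11.42 in qNSC. Of the 16 tested, 3 were called higher and 3 lower in aNSC, where 35.3% of all genes were higher and 27.1% lower. Sox10, the transcription factor gene of that lineage, averaged -1.49 ± 2.23 in aNSC and -0.73 ± 1.32 in qNSC, with 1 library of each at the floor, and Cspg4, the proteoglycan NG2, 0.74 ± 1.02 in aNSC and 1.29 ± 0.86 in qNSC (log2, SD, n = 4 each). Both were named after their values were seen and averaged lower in aNSC, so they do not stand for the 3 genes called higher. The part of oligodendrocyte precursors in the Pdgfra difference was not tested.

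The balance of the receptors was compared within each library as levels per kilobase of annotated exon. This assumes that the deposited values were not already scaled by length. The log2 difference Pdgfrb minus Pdgfra per kilobase was 10.19, 7.69, 5.93 and 12.78 in qNSC and 6.83, 4.50, 8.80 and 3.92 in pNSC, with the beta receptor above the alpha receptor in all 8 libraries. In qNSC replicates 1 and 4 Pdgfra was at the floor. In aNSC the difference was -2.92, -0.02, 0.05 and 0.24, whereas undivided Pdgfrb was below Pdgfra in all 4 aNSC libraries. Per kilobase it was below 0 in all 4 NPC1, all 3 NPC2 and all 3 NB1 libraries, at a mean of -1.88, -1.41 and -4.22, and 1 of 3 NB2 libraries was above 0. In Other the difference was 3.44, 4.34 and 3.43, and in the neurosphere cells it was below 0 in all 8 libraries.

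**Figure D3:**
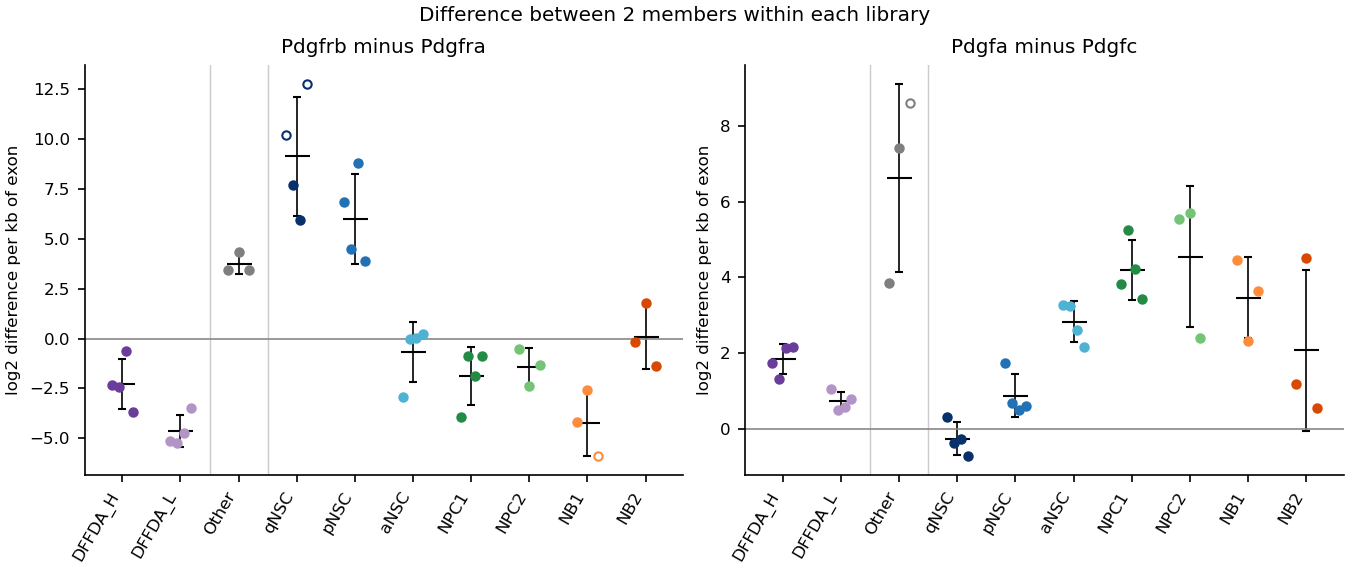
Log2 difference per kilobase of exon within each library (vertical axis), by group, for the receptors (left) and for the ligands Pdgfa and Pdgfc (right). Points are libraries, open points have 1 of the 2 genes at the floor, and black marks give the mean and SD. The receptor difference is at least 3.43 in all qNSC, pNSC and Other libraries, at most 0.24 in aNSC and below 0 in all 8 neurosphere libraries.

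Pdgfc, a ligand released in latent form, fell from qNSC and pNSC to aNSC as Pdgfrb did. Elsewhere they parted: Pdgfc averaged -2.57 in Other and 2.86 in DFFDA_H, and Pdgfrb 3.85 in Other and -4.06 in DFFDA_H. The log2 values of Pdgfc were 5.45, 5.56, 5.65 and 5.41 in qNSC and 4.04, 4.90, 5.50 and 5.34 in pNSC, then 1.70, 1.67, 2.41 and 2.58 in aNSC. The 4 qNSC values lay close together, and every aNSC value lay below all of qNSC and pNSC. Mean log2 values of 2.09 ± 0.47 in aNSC against 5.52 ± 0.11 in qNSC (SD, n = 4 each) made Pdgfc 10.8-fold lower in aNSC (limma adjusted p = 0.000219). It was 7.22-fold lower in aNSC than in pNSC (limma adjusted p = 0.00222).

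In NPC1 the Pdgfc values were 0.03, -0.64, 0.47 and 1.02, all below aNSC. That step missed the threshold (log2 change -1.87, 95% interval -3.37 to -0.37, limma adjusted p = 0.0938), and passed with only these populations fitted (0.00437), with library weights (0.0387), with values below 0 set to 0 (0.000743) and with all 36 libraries (0.0466). In NPC2, NB1 and NB2 the values ran from -2.53 to 1.22. In NB2, at -0.61 ± 1.23 (n = 3), Pdgfc was 70.1-fold below qNSC (log2 change -6.13, limma adjusted p = 1.76e-07). The log2 change was -5.33 with values below 0 set to 0 and -5.49 without NB2 replicate 2, both still called.

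Pdgfa, the other main ligand of the alpha receptor, was called lower in aNSC than in pNSC and again lower in NB2 than in NB1. Its log2 values were 5.08, 4.49, 4.69 and 4.00 in qNSC, 5.07, 4.87, 5.31 and 5.25 in pNSC and 4.28, 4.22, 4.33 and 4.05 in aNSC. The aNSC values lay below all 4 of pNSC and within the range of qNSC. Pdgfa averaged 4.22 ± 0.12 in aNSC and 5.13 ± 0.20 in pNSC (log2, SD, n = 4 each), 1.88-fold lower in aNSC (limma adjusted p = 0.0398). This call is a weak one: it ended with library weights (0.0811) and without any 1 of 7 of the 8 libraries (0.0532 to 0.0848), the exception being pNSC replicate 2.

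In the later populations Pdgfa had 3.16 to 3.99 in NPC1, 2.3 to 3.18 in NPC2 and 2.21 to 2.45 in NB1, and none of these steps passed the test. In NB2 it was 1.03, 1.90 and -0.63, all below NB1, and the mean was 0.76 ± 1.29 in NB2 and 2.33 ± 0.12 in NB1 (log2, SD, n = 3 each), 2.96-fold lower in NB2 (limma adjusted p = 0.00688). The call ended with only these populations fitted (limma adjusted p = 0.056) and without NB2 replicate 3 (log2 change -0.87, limma adjusted p = 0.0931). NB2 was 13.9-fold below qNSC for Pdgfa (log2 change -3.80, limma adjusted p = 3.42e-09), and the log2 change was -3.10 without NB2 replicate 3, still called.

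Per kilobase of exon, Pdgfa minus Pdgfc was 0.33, -0.37, -0.25 and -0.70 on the log2 scale in qNSC, with neither ligand above the other in all 4 libraries. It was 0.52 to 1.74 in pNSC, 2.18 to 3.28 in aNSC and 3.43 to 5.26 in NPC1. Pdgfa was above Pdgfc in every library outside qNSC. These signs rest on the division by exon length. Undivided, Pdgfc was above Pdgfa in all 4 qNSC libraries and in some libraries of pNSC, NB2 and DFFDA_L.

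Pdgfb, the ligand of both receptors, and Pdgfd, the ligand of the beta receptor, were low in the 7 named populations. Pdgfb was above a log2 value of 0 in 3 of their 25 libraries and reached 0.89 at most. Pdgfd was above 0 in 5 of them, 2 each in qNSC and pNSC and 1 in aNSC, and was at the floor in all 3 NPC2 and all 3 NB1 libraries. In qNSC the Pdgfd values were -2.18 (a floor), 1.01, -2.02 and 2.25, and in NB2 they were -4.56, -4.56 and -2.21, of which the first 2 are floors. The highest NB2 value and the qNSC floor were nearly equal, and NB2 was called lower than qNSC (log2 change -3.54, SE 1.29, limma adjusted p = 0.0173), a size that rests on floors. With values below 0 set to 0 it was -0.82 and not called (limma adjusted p = 0.0921), and the call also ended without qNSC replicate 2 or 4 or NB2 replicate 1 or 2 (0.0501 to 0.0745). With library weights the log2 change was -4.64, and without qNSC replicate 1 or 3 or NB2 replicate 3 it was -4.33 to -4.14, each still called.

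The libraries labelled Other held 3 members at higher and 1 at lower levels than the 7 named populations averaged with equal weight. Pdgfd had 2.57, 2.96 and 2.29 in Other, all above the 25 named libraries, which ran from -4.97 to 2.25. Pdgfb had 2.29, 3.15 and 2.72 in Other, again above all 25, which ran from -4.92 to 0.89. The log2 change was 5.22 (SE 1.03, limma adjusted p = 0.000144) for Pdgfd and 4.55 (SE 1.01, limma adjusted p = 0.000484) for Pdgfb, and since 12 and 6 named libraries were at the floor the sizes depend on it. With values below 0 set to 0 the changes were 2.34 for Pdgfd and 2.63 for Pdgfb, both still called. Both passed the filter on low values in the fresh fit only through the 3 Other libraries, where they are high. Their calls in Other are therefore not an independent test.

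In Other, Pdgfrb had 1.95, 5.67 and 3.94, between the named populations' extremes, and was 4.56-fold above their mean (limma adjusted p = 0.0169), a call that ended without Other replicate 2 (log2 change 1.28, limma adjusted p = 0.233) or replicate 3 (limma adjusted p = 0.0658). The log2 change of Pdgfrb was 2.19, against 3.14 without Other replicate 1 and 3.24 with library weights. Pdgfc was lower in Other, with -0.49, -3.03 and -4.19, the last a floor (log2 change -4.10, SE 0.63, limma adjusted p = 6.77e-06, and -1.97 with values below 0 set to 0, -5.14 without Other replicate 1 and -3.29 without Other replicate 3, each still called). It overlapped the named libraries, which reached down to -2.53. Pdgfa, at 2.65 to 3.71, and Pdgfra, at -0.62 to 2.2, were not called (limma adjusted p = 0.974 and 0.660).

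The Other libraries also carried vessel genes. In Other, where 25.9% of all genes were called higher, all 15 endothelial genes and all 9 mural genes were called higher. These vessel genes were all above 0 in each of the 3 libraries, which by itself passes the filter on low values. In each named library 1 to 9 of the 15 endothelial and 1 to 6 of the 9 mural genes were above 0. Genes low in every named population were thus tested only because of Other, and these counts are a description. The vessel sums were 9.70 to 11.22 for endothelium in Other against 2.67 to 4.50 in the named populations, and 7.26 to 10.94 for mural genes in Other against 2.01 to 4.68. Other lists were called higher there too: 13 of 14 microglial, 14 of 15 neuroblast and 4 of 7 fibroblast genes tested, with neuroblast sums of 12.95 to 13.47 in Other and 7.93 to 13.70 in the named populations. Among the 3 Other libraries, replicate 1 had the lowest and replicate 2 the highest values of both vessel sums, and the same order held for Pdgfb, Pdgfrb and Pdgfra and not for Pdgfa, Pdgfc or Pdgfd. An order of 3 libraries arises easily, and how many of all genes share it was not counted, so nothing is read from it. The part of these cells in the Other values was not tested.

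**Figure D4:**
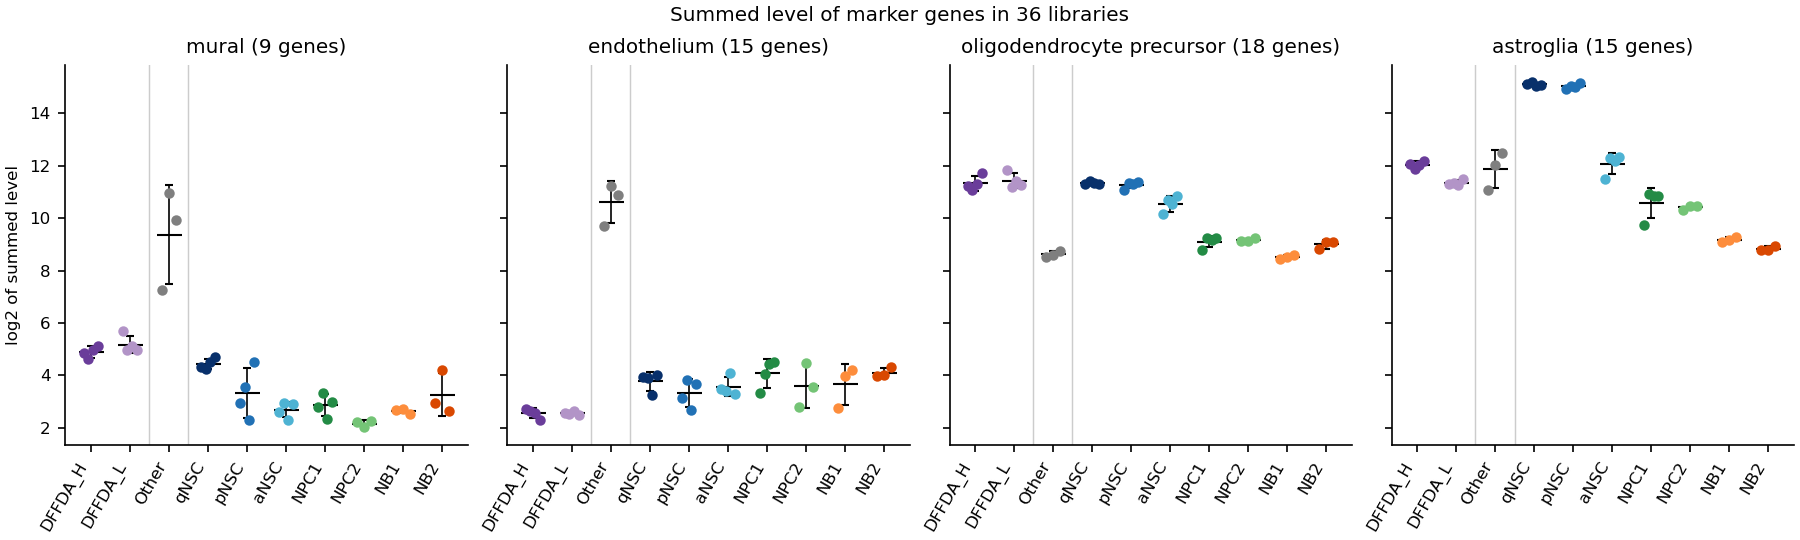
Log2 of the summed level of 4 marker lists (vertical axis) in the 36 libraries, by group. Points are libraries, and black marks give the mean and SD. The mural and endothelial sums are at least 7.26 in all 3 Other libraries and at most 5.67 in the other 33, and the astroglial sums are highest in qNSC and pNSC and lowest in NB2.

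In the neurosphere cells the ligand Pdgfc and the ligand Pdgfa were present in all 8 libraries and Pdgfrb in none above a log2 value of 0. DFFDA_H and DFFDA_L differed most in Pdgfra, which was -1.25, -0.31, -2.5 and 0.38 in DFFDA_H and 1.43, 1.35, 2.33 and 2.23 in DFFDA_L. No DFFDA_H library reached the lowest DFFDA_L value. Pdgfra was 6.76-fold lower in DFFDA_H (log2 change -2.76, SE 0.51, limma adjusted p = 0.000969). The log2 change was -1.74 with values below 0 set to 0, still called, and it was not called when all 36 libraries shared 1 estimate of the spread (limma adjusted p = 0.0665).

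Pdgfa and Pdgfd ran the opposite way. Pdgfa was 3.99, 3.57, 4.28 and 4.18 in DFFDA_H and 3.32, 2.61, 2.89 and 3.23 in DFFDA_L, 1.99-fold higher in DFFDA_H (limma adjusted p = 0.00173). Pdgfd was 1.22, 0.89, 1.58 and 0.60 in DFFDA_H and -0.15, -0.27, -0.78 and -0.28 in DFFDA_L, 2.72-fold higher in DFFDA_H (limma adjusted p = 0.00141), and lost its call in the 36-library fit (limma adjusted p = 0.410). Neither ligand overlapped between the 2 dye groups. Pdgfc was 2.74 to 2.94 in DFFDA_H and 2.82 to 3.13 in DFFDA_L, with a log2 change of -0.12 (95% interval -0.47 to 0.23). Pdgfrb and Pdgfb did not pass the filter on low values there and were at -4.75 to -2.13 in all 8 libraries. Of 12 oligodendrocyte precursor genes, 7 were called lower and 1 higher in DFFDA_H, where 22.3% of all genes were lower and 21.6% higher. The sums over all 18 genes of that list overlapped, at 11.07 to 11.72 in DFFDA_H and 11.18 to 11.82 in DFFDA_L. Cspg4, named after its values were seen, averaged 2.70 ± 0.32 in DFFDA_H and 3.87 ± 0.63 in DFFDA_L (log2, SD, n = 4 each). The part of oligodendrocyte precursors in the Pdgfra difference was not tested.

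The mean of the 2 neurosphere populations was set against the fresh aNSC. Of 6 members 2 were called, both lower in culture, where 75% of all genes were called (33.9% higher and 41.1% lower). Pdgfrb was 26.8-fold lower in culture (log2 change -4.75, SE 0.73, limma adjusted p = 6.43e-07), and the log2 change was -1.32 with values below 0 set to 0 and -5.64 without aNSC replicate 1. Pdgfa was 1.64-fold lower in culture (limma adjusted p = 0.0282), a call that ended without aNSC replicate 1, 2 or 3 or replicate 2 of either dye group (0.0528 to 0.0646). Pdgfra missed the threshold (log2 change -1.94, limma adjusted p = 0.0516) and passed with only these groups fitted (0.000444), with library weights (0.00271), with values below 0 set to 0 (0.015) and without DFFDA_H replicate 4 (0.0367). Pdgfc was higher in all 8 cultured libraries (2.74 to 3.13) than in the 4 aNSC libraries (1.67 to 2.58) without a call (limma adjusted p = 0.178), and was called with only these groups fitted (0.000602) and with values below 0 set to 0 (0.00412). Pdgfd was not called (limma adjusted p = 0.28), and was called higher in culture with library weights (log2 change 1.42, limma adjusted p = 0.0408). Culture, dye loading, passage and the sort separate these groups together and cannot be told apart.

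Whether the members differed between DFFDA_H and DFFDA_L as they did between qNSC and aNSC was tested as the difference of the 2 differences in the 36-library fit. Of 6 members 2 were called, both with a negative difference, and 42.3% of all genes were called (24% positive and 18.3% negative). Pdgfrb differed by -0.38 between DFFDA_H and DFFDA_L and by 6.24 between qNSC and aNSC, a difference of -6.62 (SE 1.19, limma adjusted p = 3.25e-05), which was -5.79 with values below 0 set to 0 and -5.73 without aNSC replicate 1. In all 8 neurosphere libraries Pdgfrb was at -4.75 to -2.13, too low to pass the filter there. Its call here therefore largely repeats the difference between qNSC and aNSC. Pdgfc differed by -0.12 between DFFDA_H and DFFDA_L and by 3.43 between qNSC and aNSC, a difference of -3.54 (SE 0.91, limma adjusted p = 0.00204). Pdgfra was lower in both, by -2.76 in DFFDA_H against DFFDA_L and by -3.56 in qNSC against aNSC, and the difference of 0.81 had a 95% interval of -2.19 to 3.81 (limma adjusted p = 0.699).

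**Figure D5:**
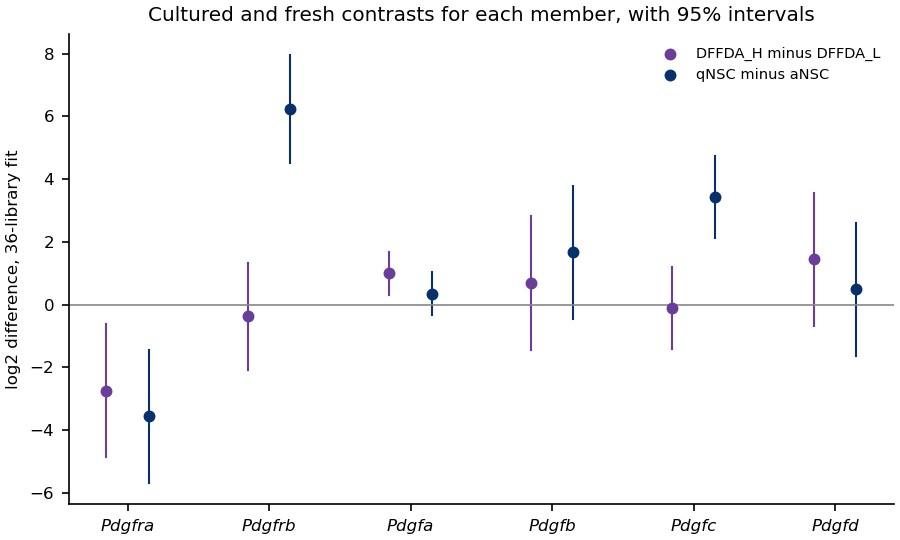
Log2 difference (vertical axis) of each member between DFFDA_H and DFFDA_L and between qNSC and aNSC, with 95% intervals from the 36-library fit. Pdgfrb at 6.24 and Pdgfc at 3.43 stand above 0 in the fresh contrast and near 0 in the dye contrast, and Pdgfra is below 0 in both. The Pdgfrb level was at most -2.13 in all 8 neurosphere libraries.

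Ordered by mean, Pdgfrb ran from qNSC (7.11) through pNSC (5.86) and Other (3.85) to aNSC (0.87), NPC1 (0.24), NB2 (0.06), NPC2 (0.06), NB1 (-2.56), DFFDA_L (-3.69) and DFFDA_H (-4.06). In the 36-library fit 1 pair of neighbours differed, Other above aNSC (limma adjusted p = 0.00578). For Pdgfc the order was qNSC, pNSC, DFFDA_L, DFFDA_H, aNSC, NPC1, NB1, NB2, NPC2 and Other, and the neighbours that differed were pNSC and DFFDA_L (0.0075) and aNSC and NPC1 (0.0466). For Pdgfa the order was pNSC, qNSC, aNSC, DFFDA_H, NPC1, Other, DFFDA_L, NPC2, NB1 and NB2, and 1 pair differed, NB1 above NB2 (0.0027). For Pdgfra, with NPC1 highest at 3.00 and qNSC lowest at -1.16, and for Pdgfd, with Other highest at 2.61 and NB1 lowest at -4.64, no neighbours differed. For Pdgfb 1 pair did, Other at 2.72 above NPC1 at -0.92 (0.00835), and Pdgfb passed the filter only through Other.

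The wider pathway was described through 49 genes in 4 lists (ligand processing, ligand binding and co-receptors, receptor signalling and receptor attenuation), of which 48 could be tested in the fresh cells. In aNSC against qNSC 17 were higher and 11 lower, where 35.3% of all genes were higher and 27.1% lower, with a median log2 change of 0.12 over the lists and 0.19 over all genes. Pcsk6, a proprotein convertase, was 63.9-fold lower in aNSC, at 0.69 in aNSC and 6.69 in qNSC (limma adjusted p = 2.70e-05). Sparc, whose product binds PDGF, was 25.6-fold lower in aNSC, and Lrp1, an endocytic receptor that associates with the beta receptor, 11.9-fold lower. St14, the protease matriptase that cleaves the Pdgfd product, was higher in aNSC by a log2 change of 3.59, and Grb10, an adaptor that binds the receptors, was 8.24-fold higher in aNSC. Kitl, the ligand of the related receptor Kit, was 11.4-fold higher in aNSC, the 1 of 8 related ligands called higher, and 5 were called lower, Pgf, Csf1, Vegfa, Vegfb and Flt3l.

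Between pNSC and qNSC, where limma called 0 members, 10 of 48 pathway genes were higher and 1 lower in pNSC, where 14.2% of all genes were higher and 8.06% lower. The higher ones included Shb, an adaptor of the receptors (3.87-fold, limma adjusted p = 0.00111), St14 (9.44-fold) and Grb10 (3.00-fold), and the lower one was Nrp1, a co-receptor gene (1.94-fold lower). The median was 0.07 over the lists and -0.05 over all genes. In NB2 against qNSC 25 of 48 were higher and 7 lower in NB2, where 39.4% of all genes were higher and 28.8% lower. Shb was 40.6-fold and the Src family kinase gene Fyn 3.76-fold higher in NB2, whereas Sparc was 52.2-fold and the signalling scaffold gene Slc9a3r1 62.8-fold lower in NB2.

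In Other 15 of 48 pathway genes were higher and 14 lower than the mean of the named populations, where 25.9% of all genes were higher and 28.4% lower. Plat, the tissue plasminogen activator that cleaves the Pdgfc product, averaged 6.99 in Other and 3.51 over the named populations (log2), and Sparc 8.83 in Other and 5.03 over the named populations. Of the related receptors, the vessel receptor genes Flt1, Kdr and Flt4 were called higher in Other. In DFFDA_H against DFFDA_L 3 of 46 pathway genes were higher and 11 lower, where 21.6% of all genes were higher and 22.3% lower. Plat was 1.68-fold higher in DFFDA_H, at 10.58 in DFFDA_H and 9.83 in DFFDA_L. Kit was 4.33-fold lower in DFFDA_H (limma adjusted p = 0.000174).

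The genes whose log2 values ran most like each member over the 28 fresh libraries were named by Pearson correlation, as a description. For Pdgfrb these were Tmem51 (r = 0.971), Rgcc (0.955), Entpd2 (0.951), Tmem100 (0.950) and Epas1 (0.949), and for Pdgfc Crot (0.946), Eps15, Rorb, Tom1l1 and Slc41a1 (0.942). For Pdgfa they were Mt2 (0.936), Gm45774, Wwtr1, Nfe2l2 and Pard3b (0.914). The correlations were weaker for Pdgfd, led by Ndnf (0.833), for Pdgfra, led by Lpl (0.812), and for Pdgfb, led by Nos3 (0.741), the endothelial nitric oxide synthase gene. Without the 3 Other libraries the 5 genes of Pdgfb had r of 0.460 to 0.520, those of Pdgfd 0.665 to 0.752 and those of Pdgfc 0.930 to 0.951. The top 5 then kept 0 of these genes for Pdgfc, 0 for Pdgfd, 1 for Pdgfb, 3 for Pdgfrb, 3 for Pdgfa and 4 for Pdgfra. All points share the library and its normalization, and ranked values keep 0 to 3 of the 5 genes of each member. Among the members themselves the correlation over the 28 libraries was 0.635 for Pdgfrb and Pdgfc, 0.634 for Pdgfrb and Pdgfa, 0.629 for Pdgfa and Pdgfc and -0.446 for Pdgfra and Pdgfrb.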

How the data were processed

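RNA of 36 libraries was sequenced from poly(A) RNA with the SMARTer Ultra Low kit, which keeps no strand, on a NextSeq 500, per the labels' protocols. Per the submitters' processing notes, HISAT2, featureCounts and limma were among the tools, with FastQC, cutadapt and Trimmomatic, and the build was GRCm38/mm10. Versions and settings of these tools are not stated. The table that the authors deposited holds log2 values of 19909 genes, whose powers of 2 sum to 987637 to 987910 in each library with medians of 3.53 to 3.56, so depth and total RNA are not visible in them and depth is unknown. Of the table, 1770 blank lines were dropped. The planned count test needs raw counts, so limma 3.58.1 (R 4.3.3) was used on the deposited log2 values, with variance trend and robust moderation, in separate fits of 28 fresh (17788 genes), 8 neurosphere (15956 genes) and all 36 libraries (19158 genes, for contrasts that cross the sets and for the order of levels). Genes had to reach a log2 value of 0 in at least 3 libraries of 1 group. P-values were adjusted by Benjamini-Hochberg, with a threshold of 0.05. A fold is 2 to the log2 change, and no pseudocount was added. The samples are labelled biological replicates but not tied to animals, and a p-value then reflects only how far these libraries scatter, which may be technical. Deviations of same-numbered libraries from their group means correlated at -0.157 to 0.238. These were not compared with those of differently numbered libraries, so the check cannot say whether libraries were paired. The main fits have no block, and a replicate block was run as an alternative. Levels were set between genes only per kilobase of GENCODE M21 exon. Named genes besides the members were, for each list and comparison, up to 3 called genes with the smallest p. In aNSC against qNSC all called mural genes and all called related ligands were named instead. The 5 genes with the highest Pearson correlation to a member were also named. Rgs5, Vtn, Sox10 and Cspg4 were named after their values were seen, as defining markers. The members and gene lists were chosen with earlier results of these data known. Python 3.11.15, numpy 2.4.6, pandas 2.3.3, scipy 1.17.1 and matplotlib 3.10.9 prepared tables and figures, and the fits were tested on simulated data. Alternatives were other filters, centring, library weights, other sets of libraries, values below 0 set to 0, a replicate block and leaving out each library.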

Additional observations from a re-analysis of the deposited data

Results flagged for a closer look

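Among 36 groups of 4 libraries (6 members in 6 groups), 1 value stood far from the others of its group. Pdgfrb in aNSC replicate 1 was -1.80 on the log2 scale, against 1.47 to 2.01 in the other 3 aNSC libraries. The gap was 0.86 of the range of the group, above Dixon's 95% critical value of 0.829. Chance flags about 1 in 20 such groups. Without this library Pdgfrb was still called lower in aNSC than in qNSC, with a log2 change of -5.36 in place of -6.24.

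The difference between DFFDA_H and DFFDA_L departed from that between qNSC and aNSC for 2 members. For Pdgfrb the difference of the differences was -6.62 (limma adjusted p = 3.25e-05). For Pdgfc it was -3.54 (limma adjusted p = 0.00204). In both, the fresh libraries carried the difference and the values of DFFDA_H and DFFDA_L overlapped. Pdgfrb was too low in the neurosphere libraries to pass the filter there.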

How the results depend on the processing

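Of 22 called member changes, 14 kept their call under every alternative run, 8 lost it under at least 1, as given beside them, and 0 reversed. The cause of the changes below was not tested. Counts of members called moved by over 1.5 times in 5 comparisons, and by 1 in 4 more: 2 to 3 (main 3) in aNSC against pNSC and in aNSC against qNSC, 3 to 5 (main 4) in NB2 against qNSC and 3 to 4 (main 4) in Other. NPC1 against aNSC had 0 and gave 1 with only the groups compared fitted, with library weights, with values below 0 set to 0 and with all 36 libraries. NB1 against NPC2 had 0 and gave 1 with library weights. NB2 against NB1 had 1 and gave 0 with only its groups fitted, 3 with library weights, 2 with the replicate block, 2 with 36 libraries and 0 to 2 with 1 library left out. DFFDA_H against DFFDA_L had 3 and gave 1 with 36 libraries. Culture against aNSC had 2 and gave 4 with only its groups fitted, 4 with library weights, 4 with values below 0 set to 0 and 1 to 3 with 1 library left out. The replicate numbers share no animal, batch or day in the labels, and the block changed no other count of members.

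The reversals all concern changes that were not called. With values below 0 set to 0 the log2 change was 0.18 for Pdgfb in pNSC against qNSC, -0.17 for Pdgfd in aNSC against pNSC, 0.026 for Pdgfc in NPC2 against NPC1 and -0.13 for Pdgfc in NB1 against NPC2. With library weights it was -0.54 for Pdgfd in aNSC against pNSC, -0.065 for Pdgfc in NB1 against NPC2, 0.35 for Pdgfra and 0.21 for Pdgfa in Other, and -0.27 for Pdgfd in the difference of the dye and fresh contrasts. With the replicate block Pdgfrb in NPC2 against NPC1 was 0.13. With 1 library left out, Pdgfb ranged from -0.96 to 0.58 in pNSC against qNSC, -1.42 to 0.77 in NB1 against NPC2, -0.27 to 2.02 in NB2 against NB1 and -1.97 to 0.21 in NB2 against qNSC. Pdgfd ranged from -0.27 to 1.60 in aNSC against pNSC and -1.30 to 0.33 in aNSC against qNSC, and Pdgfrb from -1.52 to 0.20 in NPC1 against aNSC and -1.02 to 0.25 in NPC2 against NPC1. Pdgfc ranged from -0.13 to 1.74 in NB1 against NPC2 and -0.76 to 0.46 in NB2 against NB1. Pdgfra ranged from -0.047 to 0.38 in NB1 against NPC2, -1.15 to 0.26 in Other and -0.38 to 1.79 in the difference of contrasts, and Pdgfa from -0.20 to 0.34 in Other.

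Among all genes, the count called in pNSC against qNSC was 3959, and 2429 without pNSC replicate 1, 1380 with only these groups fitted and 2234 with library weights. In the same order for these fits and weights, NPC1 against aNSC had 2262, and 5054, 5983 and, without NPC1 replicate 1, 1335. In NPC2 against NPC1 it was 239, and 561, 2180, 376 with 36 libraries and as few as 80 with 1 library left out. In NB1 against NPC2 it was 1364, and 2690, 6234 and as few as 764. In NB2 against NB1 it was 4371, and 6557 and 9015. In DFFDA_H against DFFDA_L it was 6995, and 3234 with 36 libraries. Asking for a mean log2 value of 4 tested fewer genes and called 5314 in aNSC against pNSC (8585 before), 6539 in aNSC against qNSC (11090), 6672 in NB2 against qNSC (12145), 5682 in Other (9654), 4318 in DFFDA_H against DFFDA_L, 6995 in culture against aNSC (14364) and 5025 in the difference of contrasts (8108). No member reached that mean in these fits, so it gives no member a value. The fit of Other with only the groups compared is the main one, and was not run again. Depth is unknown, so how far sampling noise limits Pdgfb and Pdgfd, which are often at the floor, cannot be given.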
